A study of Drosophila melanogaster with 3 samples.

Results

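The genes of the cytoplasmic translation initiation factors (symbols starting with eIF) and elongation factors (symbols starting with eEF) were examined for chromatin bound by Sp1 in the larva of Drosophila melanogaster. Choosing every protein-coding gene with such a symbol gave 52 genes of the 13945 protein-coding genes on chromosome arms 2L, 2R, 3L and 3R and chromosomes 4 and X. The rule reads symbols only. Each of the 3 biological replicates was whole wandering larvae of the third instar, males and females together, from the strain Sp1-GFP. This transgenic line carries Sp1 joined at its C terminus to green fluorescent protein, and all 3 replicates share the fusion. DNA bound by it was recovered with an antibody to the protein tag and sequenced (ChIP-seq), and the larvae were not treated. There is 1 group, so no condition is compared with another.

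The 5 lists used hold peaks, which are intervals where reads of the immunoprecipitate piled up over a control. There is 1 list per replicate, 1 for the pooled replicates and an optimal set of 8001 peaks, chosen by the authors for reproducibility between lists. The replicate and pooled lists hold 30000 peaks each. Since these lists are all of 1 length, their lower end is not known to mark a significance threshold. Low-ranked peaks in them, and the lack of one, are weak evidence. The optimal peaks are the 8001 strongest pooled peaks, with signals of 220.4 or more. A single optimal peak is therefore not in itself a site found in every replicate. Signal is the value that the authors' peak caller gave to a peak, with no stated scaling between lists, so peaks were ranked within a list and the replicates' signals show spread only. The lists give no read counts, and depth is unknown. The line drives the fusion in a whole animal, so a peak does not tell in which larval tissues, or in what share of cells, the site was bound. Replicate 3 stood apart in where its strongest 8001 peaks lay. They fell at promoters in 36.5% of cases, against 48.1% in replicate 1, 49.9% in replicate 2 and 44.5% in the optimal set, and member counts are therefore given replicate by replicate.

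Initiation begins when eIF2, a GTPase, brings the initiator tRNA to the small ribosomal subunit together with eIF1, eIF1A, eIF5 and the multisubunit eIF3. The cap-binding complex eIF4F, made of eIF4E, the scaffold eIF4G and the helicase eIF4A, recruits the mRNA, and eIF5B joins the large subunit. The GTPases eEF1alpha and eEF2 then carry out elongation, and eEF1beta, eEF1gamma and eEF1delta belong to the complex that recharges eEF1alpha with GTP. Sp1 is a zinc finger factor of the Sp/KLF family, whose members are known to bind GC-rich and CACCC boxes, and in flies it is known for its part in the growth of the appendages. In flies, genes of ribosomal proteins and of several translation factors are known to start transcription at a polypyrimidine initiator, the TCT motif.

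Stretches around 5 of the promoter summits that lie outside untranslated exons are shown here because the values below refer to them. A promoter peak is a peak whose summit, its highest point, lies within 500 bp of a transcription start site (TSS) of the gene. Each sequence reads 5′ to 3′ on the gene's strand from Release 6 of the reference genome, covers up to 50 bases either side of the summit and stops before transcribed untranslated sequence. Capitals mark TATCGATA, the core of the DNA replication-related element (DRE) known at housekeeping promoters of flies, the Sp/KLF words GGGCG and GGGTG, and TATAAA, each on either strand. The intervals were chr3R:24109140-24109240 on the minus strand for eIF4EHP, chr3R:29220086-29220171 on the plus strand for eEF1gamma and chr3L:3222961-3223053 on the plus strand for eIF1. Those of eIF3a and eIF3h were chr3R:4433896-4433964 and chr2L:5052465-5052565, both on the minus strand. The last stretch is the summit of the strongest peak near any of these genes, upstream of eEF1gamma, at chr3R:29214394-29214494 on the plus strand.
eIF4EHP promoter: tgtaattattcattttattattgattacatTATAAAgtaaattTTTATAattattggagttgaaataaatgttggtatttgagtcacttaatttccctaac
eEF1gamma promoter: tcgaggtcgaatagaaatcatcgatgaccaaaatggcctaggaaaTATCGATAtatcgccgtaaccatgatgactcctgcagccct
eIF1 promoter: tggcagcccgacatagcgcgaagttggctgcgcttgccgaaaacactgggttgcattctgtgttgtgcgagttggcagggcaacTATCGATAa
eIF3a promoter: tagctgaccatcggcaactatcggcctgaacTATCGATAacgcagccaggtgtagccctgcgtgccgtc
eIF3h promoter: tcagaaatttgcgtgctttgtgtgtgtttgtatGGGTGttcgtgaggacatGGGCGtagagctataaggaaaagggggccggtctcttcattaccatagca
eEF1gamma distal: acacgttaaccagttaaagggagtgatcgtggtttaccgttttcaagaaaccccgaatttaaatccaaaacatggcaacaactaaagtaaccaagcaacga

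Sp1-GFP had an optimal promoter peak at 20 of the 52 translation factor genes (38.5%), against 27.8% of all protein-coding genes. The 20 genes ranged from eIF4EHP, a cap-binding repressor with a peak of rank 22 in the whole optimal set, to eIF2beta, a subunit of eIF2 with a peak of rank 7665. When each replicate was represented by its own 8001 strongest peaks, replicate 1 had a promoter peak at 24 of the genes (46.2%, against 30.2% of all genes) and replicate 2 at 25 (48.1%, against 29.4%). Replicate 3 had one at 13 (25%, against 23.7%). The mean over replicates was 39.74% ± 12.8 (SD, n = 3) for the translation factor genes and 27.76% ± 3.572 (SD, n = 3) for all genes. Within replicates, the share of factor genes exceeded that of all genes by 15.96, 18.66 and 1.343 percentage points (mean 11.99 ± 9.317, SD, n = 3). The excess over the background was therefore seen in replicates 1 and 2, and in replicate 3 the share lay near the background. Taking the sites shared by the strongest peaks of only 2 replicates, the count was 11 without replicate 1 (21.2%, against 16.82% of all genes), 13 without replicate 2 (25%, against 19.05%) and 18 without replicate 3 (34.6%, against 23.13%). No test was run on this difference from the background, since an exact two-sided permutation over 3 replicates gives no p below 0.25.

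The same 13 genes, eIF4EHP, eIF6, eEF1gamma, eIF1, eIF5B, eEF2, eIF3h, eIF4H1, eEF5, eIF4A, eEF1alpha1, eIF3m and eIF2D, were found among the strongest peaks of all 3 replicates (25%, against 18.1% of all genes). Replicates 1 and 2 shared 20 of the genes, and 7 of those (35.0%) were not among the strongest of replicate 3. Over all genes, 976 of the 3495 shared by replicates 1 and 2 (27.9%) were missing there too. No translation factor gene was in the strongest peaks of replicate 3 alone. With weaker peaks included, 33 genes had a promoter peak in the pooled list (63.5%, against 42.6% of all genes), and 39 had one in at least 1 list (75%, against 57.9%). The remaining 13 genes had none in any list.

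**Figure D1:**
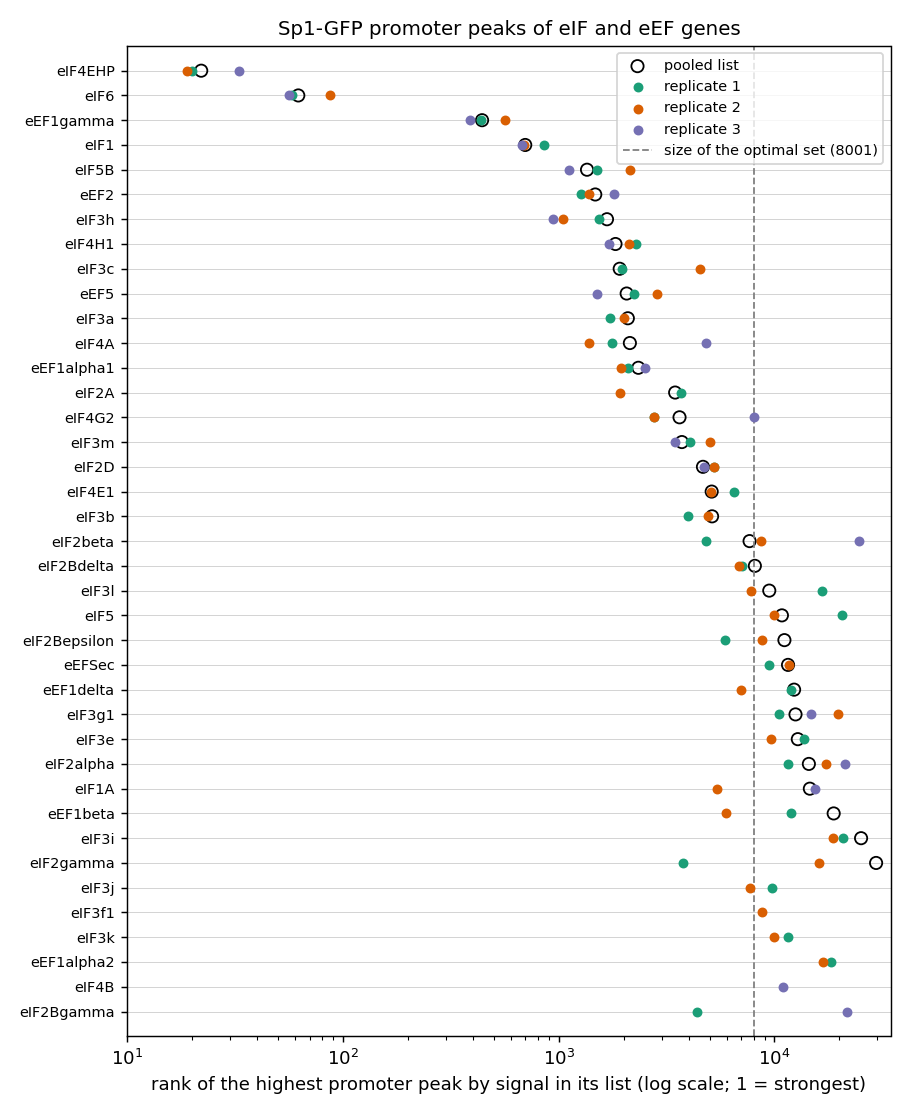
Rank of the highest promoter peak of each translation factor gene in its list, on a log axis where 1 is the strongest peak, for the 39 genes with a peak in at least 1 list. Open circles are the pooled list and coloured points the 3 replicates, a missing point means no promoter peak in that list, and the dashed line is the size of the optimal set (8001). The highest 4 genes keep close ranks in every replicate, and points of replicate 3 are missing for 5 of the 20 genes left of the line.

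Ribosomal protein genes had a promoter peak more often than the factors in every list. Of 92 genes with a cytoplasmic ribosomal protein symbol, 76 had an optimal promoter peak (82.6%), and over the replicates the share was 82.97% ± 0.6276 (SD, n = 3). Of the 75 shared by replicates 1 and 2, 5 (6.67%) were missing from the strongest of replicate 3. Aminoacyl-tRNA synthetase genes charge tRNAs, and this set includes mitochondrial ones. They had a peak at 15 of 33 (45.5%), with 48.48% ± 8.017 (SD, n = 3) over the replicates. The synthetase share was higher than the factor share in all 3 replicates, by 5.361, 6.469 and 14.39 percentage points (mean 8.741 ± 4.927, SD, n = 3). No test was made between these sets, which were not chosen at random.

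**Figure D2:**
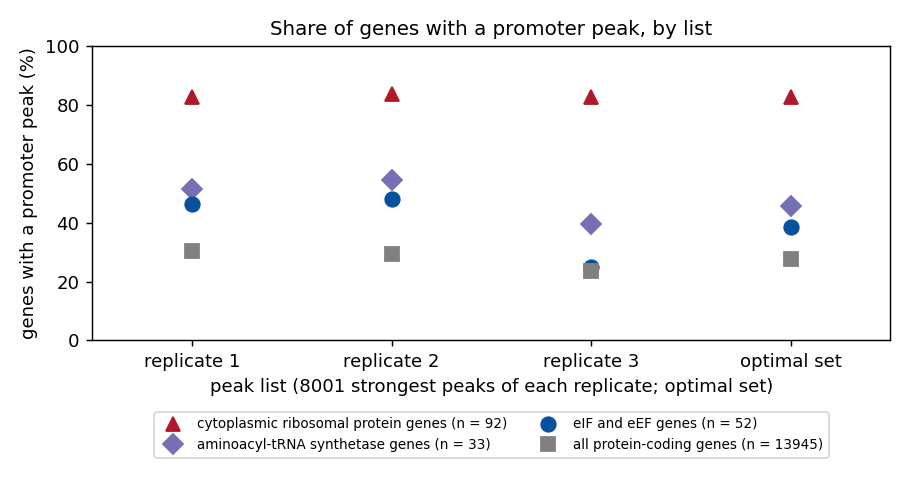
Share of genes with a promoter peak (y axis, percent) in the 8001 strongest peaks of each replicate and in the optimal set (x axis), for translation factor genes, ribosomal protein genes, aminoacyl-tRNA synthetase genes and all protein-coding genes. The translation factor genes fall from 46.2% and 48.1% in replicates 1 and 2 to 25% in replicate 3, while ribosomal protein genes stay between 82.6% and 83.7%.

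By role, the factors of start codon choice and subunit joining had the most peaks for their number, read against 27.8% of all genes with an optimal promoter peak and 57.9% with one in some list. Of those 7 genes (eIF1, eIF1A, eIF2A, eIF2D, eIF5, eIF5B and eIF6), 5 had an optimal promoter peak (71.4%) and the other 2 a weaker pooled peak. Of 8 elongation factor genes, 4 had an optimal peak and all 8 a peak in some list, though the pooled summit of eEFSec lay nearer to another gene. Optimal peaks were found at 3 of the 6 genes of eIF4A, eIF4B, eIF4G and eIF4H. The shares were near the background for eIF3, with 5 of 16 genes (31.2%), and for the eIF4E family, with 2 of 7 (28.6%). For eIF2, 1 of 3 genes had an optimal peak, and for eIF2B, the exchange factor that recharges eIF2, 0 of 5. These counts are small, and 1 or 2 genes would change their order.

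**Figure D3:**
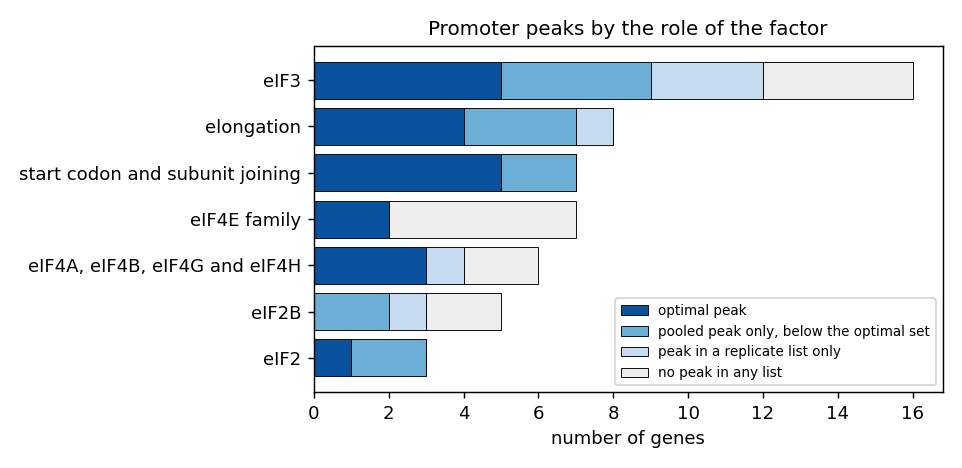
Number of genes (x axis) of each group of factors (y axis) by the strongest list in which a promoter peak was found. All 7 genes of start codon choice and subunit joining and all 8 elongation factor genes have a peak in some list, and 5 of the 7 eIF4E family genes have none.

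The cap-binding genes held both extremes. eIF4EHP (FBgn0053100), which binds the cap without eIF4G and is known in flies to repress maternal mRNAs in the embryo, had signals of 2444.8 in replicate 1, 2008.1 in replicate 2 and 2029.8 in replicate 3 (mean 2160.9 ± 246.1, SD, n = 3). Its pooled signal was 6459.7, and it ranked 18 among the 3873 genes with an optimal promoter peak. The peak ranked 20, 19 and 33 in the lists of replicates 1, 2 and 3, so no replicate decided this position. The summit lay in intergenic DNA 230 bp upstream of eIF4EHP and 146 bp upstream of CG18428, which is transcribed the other way, so the peak cannot be given to 1 of the 2 genes. eIF4E1, the main cap-binding subunit of eIF4F, had signals of 84.22 in replicate 1 and 128.7 in replicate 2 at its optimal summit, and no promoter peak in replicate 3. Its pooled signal was 339.1, with the summit 0 bp from a TSS, and this places it among the weaker optimal peaks. No promoter peak was found in any list for eIF4E3, which is needed in the fly testis, or for eIF4E4, eIF4E5, eIF4E6 and eIF4E7.

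The other subunits of eIF4F differed in the same way. eIF4A, the helicase that unwinds the leader of the mRNA, had signals of 278.5, 312 and 129.6 in replicates 1, 2 and 3 (mean 240 ± 97.06, SD, n = 3), and replicate 3 was the lowest. eIF4G1, the scaffold, had no promoter peak in any list. It lies on chromosome 4, where 5 of 80 genes (6.25%) had an optimal promoter peak. Its relative eIF4G2, which acts in the male germline, had signals of 197.4, 195.6 and 76.83, at a TSS region that CG33111 shares on the same strand. eIF4H1, an RNA-binding partner of eIF4A by its relation to the mammalian protein, had 230.2, 234.3 and 307.7 (mean 257.4 ± 43.61, SD, n = 3), and its paralog eIF4H2 had no peak in any list. eIF4B, another helper of the helicase, had a peak in replicate 3 only, with a signal of 54.55.

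Among the factors of start codon choice and subunit joining, eIF6 and eIF1 had the highest peaks. eIF6, which keeps the large ribosomal subunit from joining too early, had signals of 1777.4, 1281.6 and 1570.0 in replicates 1, 2 and 3 (mean 1543.0 ± 249, SD, n = 3), and its rank in the optimal set was 62. The summit was 104 bp upstream of eIF6, inside an intron of ytr. eIF1, which guards the fidelity of start codon choice, had 470.3, 482.2 and 552 (mean 501.5 ± 44.16, SD, n = 3) at a summit 338 bp upstream. That summit was 43 bp upstream of the divergent ribosomal protein gene RpL28, so it was nearer to RpL28 than to eIF1. A second optimal summit, 135 bp upstream of eIF1, had a pooled signal of 804 and signals of 200.8, 307.2 and 256.5. Both summits were thus found in all 3 replicates.

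eIF5B, the GTPase of subunit joining, had signals of 314.8, 233.1 and 413 (mean 320.3 ± 90.06, SD, n = 3), and here replicate 3 was the highest. eIF2D, which can deliver tRNA to the ribosome without GTP, was weaker but even, with 119.4, 126.5 and 133.6 (mean 126.5 ± 7.101, SD, n = 3). eIF2A, a tRNA-binding factor that is not part of eIF2, had 157.9 in replicate 1 and 251.1 in replicate 2 and no peak in replicate 3. eIF5, which triggers GTP hydrolysis by eIF2, and eIF1A, the scanning partner of eIF1, stayed below the optimal set with pooled signals of 155.6 and 105.5. The eIF5 summit lay 51 bp upstream of it and as far upstream of CG46312 on the same strand.

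Among the elongation factors, eEF1gamma had the highest promoter peak. Its signals were 696 in replicate 1, 536.3 in replicate 2 and 728.1 in replicate 3 (mean 653.4 ± 102.7, SD, n = 3), at a summit 36 bp upstream of the gene, and its pooled rank was 441. eEF2, the translocase, had 357.1, 310.6 and 298.7 (mean 322.1 ± 30.87, SD, n = 3). eEF5, a factor known to relieve stalled ribosomes and to carry the modified residue hypusine, had 233.8, 191.2 and 340.5 (mean 255.2 ± 76.91, SD, n = 3). eEF1alpha1, which delivers charged tRNAs, had 246.3, 237.8 and 229 at its highest summit (mean 237.7 ± 8.653, SD, n = 3). This coefficient of variation, 3.64%, was the lowest of the 13 genes whose highest optimal summit was found in every replicate. A second optimal summit of eEF1alpha1, 129 bp upstream of another of its TSSs, had 175, 248 and 128.8.

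The paralog eEF1alpha2 and the partners of eEF1gamma were weaker. eEF1alpha2 had signals of 32.12 in replicate 1 and 40.69 in replicate 2 and no pooled promoter peak. eEF1beta had 54.83 and 115.3, and eEF1delta 54.36 and 102.1, in replicates 1 and 2, and neither had a peak in replicate 3. Their pooled signals of 72.41 and 132 were below the optimal set. Thus 1 of the 3 genes of the exchange complex had an optimal promoter peak, which is near the share of all genes (27.8%). eEFSec, the elongation factor for selenocysteine, had a pooled signal of 143.7 at a summit 389 bp upstream. That summit lay inside the divergent gene Acox57D-p, 16 bp from a TSS of that gene, so it cannot be given to eEFSec.

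The eIF3 genes, which encode the scaffold that links the small subunit to the mRNA, had peaks of middle rank. eIF3h had signals of 311.1, 371.2 and 455.2 in replicates 1, 2 and 3 (mean 379.2 ± 72.4, SD, n = 3), but the replicates did not place them alike. The stronger pooled summit, of 849.5, was 265 bp inside the gene, in an intron, and only replicate 3 had a summit within 100 bp of it. The second, of 843.8, was 25 bp downstream of a TSS and was found in all 3 replicates, with 311.1, 371.2 and 161. eIF3c had 257.1 in replicate 1, 139.8 in replicate 2 at another summit, and no promoter peak in replicate 3. eIF3a had 284.5 and 242.2 in replicates 1 and 2 and none in replicate 3, at a summit 44 bp upstream of it and 26 bp upstream of the divergent gene CG1074. eIF3m had 147.6, 130.2 and 175.6, and eIF3b had 149.3 and 132.1 in replicates 1 and 2 only.

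In eIF3, 3 subunits have a pair of genes each, and no gene of these pairs had an optimal promoter peak, against 27.8% of all genes. The pairs hold too few genes to read a difference from that share. eIF3g1 had weak signals of 62.92, 32.84 and 37.51 and eIF3g2 had no peak. eIF3f1 had a peak in replicate 2 only, of 83.74, and eIF3f2 had none. Neither eIF3d1 nor eIF3d2 had a peak in any list. Of the remaining subunits, eIF3e, eIF3i and eIF3l had pooled peaks below the optimal set, of 125.4, 45.39 and 181.6, and eIF3j and eIF3k had peaks in replicates 1 and 2 only.

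Stress signals act on initiation through eIF2 and eIF2B. Their 8 genes had 1 optimal promoter peak (12.5%, against 27.8% of all genes), a difference of 1 or 2 genes. eIF2alpha, the subunit that stress kinases phosphorylate, had signals of 56.25, 38.83 and 24.2 and a pooled signal of 107.1. eIF2beta had 127.9, 84.27 and 20.3 and a pooled signal of 231.3. Its peak in replicate 3 was at another summit, 40 bp from the TSS and more than 100 bp from the pooled one. eIF2gamma, the GTPase subunit, had highest signals of 155.4 and 42.94 in replicates 1 and 2, at different summits. Its pooled signal of 33.73 was at another summit, in a coding exon of Set. That summit also lay within 500 bp of a TSS of Set and of Su(var)3-9, so it cannot be given to eIF2gamma alone. Within 100 bp of it, replicate 2 had a signal of 38.68 and replicate 1 had no peak. In eIF2B, the pooled signals of eIF2Bdelta and eIF2Bepsilon were 217.3 and 150.4, at summits nearer to TSSs of the divergent genes roh and Ocrl. eIF2Bgamma had peaks of 139.6 in replicate 1 and 23.69 in replicate 3, and eIF2Balpha and eIF2Bbeta had none in any list.

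The lowest signal of the optimal set was 220.4. The lowest factor genes inside it were eIF2beta with 231.3, near that edge, and eIF3b with 338.3 at rank 5137, well inside it. The highest outside were eIF2Bdelta with 217.3 and eIF3l with 181.6. eIF2Bdelta had 92.12 and 103.6 in replicates 1 and 2, and eIF3l had 36.36 and 92.72. Of the 20 genes with an optimal peak, 15 had a promoter peak in all 3 replicates and 5 in replicates 1 and 2. In 13 of the 15, each replicate had a peak within 100 bp of the highest pooled summit, with a median coefficient of variation of 15.72% and a highest value of 44.13%, at eIF4G2. The exceptions were eIF3h and eIF2beta. The pooled signal of the 20 had a median of 713.7, against 483.9 for all 3873 genes with an optimal promoter peak, 974.1 for ribosomal protein genes and 471.1 for synthetase genes. These medians describe only the genes that passed the threshold.

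Measured to the nearest of a gene's TSSs, the promoter summits of the factor genes lay closer, by median, than those of all genes. The gap was smaller with 1 TSS per gene. Their median distance from a TSS on either side was 67.5 bp, against 129 bp for all genes with an optimal promoter peak, and 13 of 20 (65.0%) were within 100 bp of a TSS, against 39.6%. The median distances were 69 and 122 bp in replicate 1, 82 and 121.5 bp in replicate 2 and 101 and 150 bp in replicate 3, so the order held in each. With only the most 5-prime TSS of each gene they were 105 and 130 bp. A gene with more TSSs is more likely to have one near a summit. Factor genes with an optimal peak have a mean of 1.95 TSSs, and the distances to the nearest TSS are not corrected for this. The summit was upstream of the TSS at 12 of the 20 factor genes (60%), against 76.9% of all genes, and the signed medians were 27.5 and 111 bp upstream. With the most 5-prime TSS only, the signed median turned to 22 bp downstream for the factor genes and was 101 bp upstream for all genes. A smaller share of factor genes had the summit also within 500 bp of another gene, 6 of 20 (30.0%) against 51.7%. The 6 were eIF4EHP, eIF1, eIF3a, eIF3h and eIF3m, each with a divergent neighbour, and eIF4G2. In replicate 1 the share was 41.7% against 51.3%, and in replicates 2 and 3 it was 36.0% against 50.5% and 30.8% against 51.9%.

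**Figure D4:**
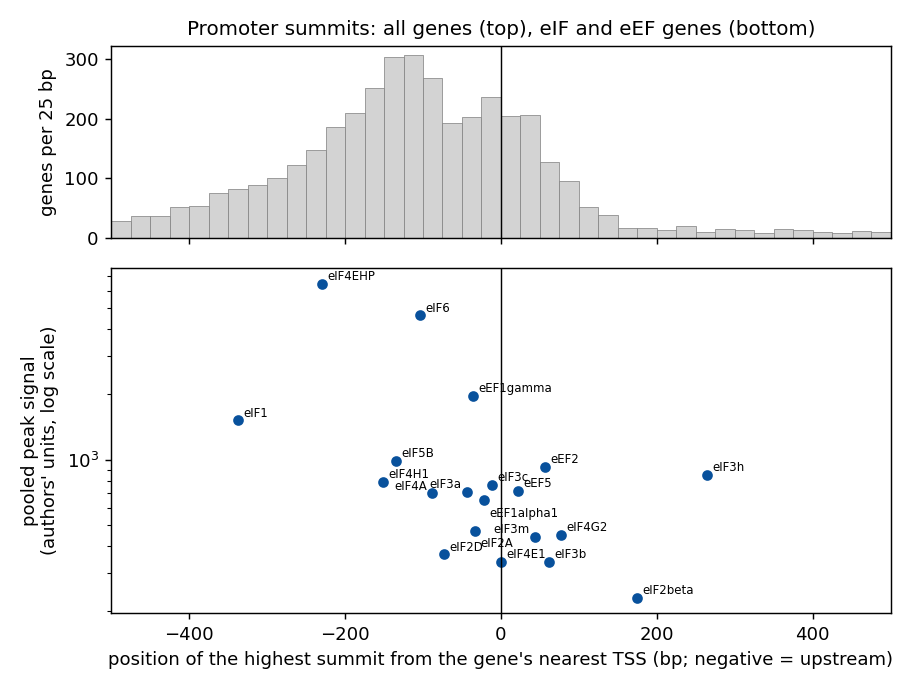
Position of the highest optimal promoter summit from the nearest TSS of the gene (x axis, bp, negative upstream), as a histogram over all 3873 genes with such a peak (top) and for the 20 translation factor genes against pooled signal on a log axis (bottom). Most translation factor summits lie within 100 bp of the TSS, and the strongest, eIF4EHP, lies 230 bp upstream.

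Peaks were more frequent at factor genes with several TSSs. Of the 32 genes with 1 TSS, 6 had an optimal promoter peak (18.8%), against 21.0% of all genes with 1 TSS. Of the 20 genes with 2 or more, 14 had one (70.0%), against 46.7% of all such genes. A gene with more TSSs also covers more DNA within 500 bp of a start, and the counts are not corrected for this. Among genes with 1 TSS, the factor genes were near the background. The strongest 2 promoters of the set, those of eIF4EHP and eIF6, have 1 TSS each.

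Around the 20 promoter summits, the DRE was more frequent than at other promoters. TATCGATA was found within 100 bp of 5 of 20 summits (25%), against 5.96% of all 3559 optimal promoter summits and 6.45% of all TSSs. The shares were 15% against 2.75% within 50 bp and 30% against 11.4% within 250 bp. The 5 were eEF1gamma, eIF1, eIF2A, eIF3a and eIF6. The word covered the summit itself at eEF1gamma and was 6 bp from it at eIF3a and 42 bp at eIF1, as marked in the sequences above, and it was 49 and 93 bp away at eIF2A and eIF6. The word was not confined to the bound genes: at the TSSs of factor genes without an optimal peak it occurred in 21.1% (8 of 38), and at those of genes with one in 12.8% (5 of 39). These 2 shares count windows at TSSs, not summits or genes. Factor genes with an optimal peak have more TSSs each (mean 1.95, against 1.188).

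The Sp/KLF words were not more frequent at these summits beyond a few windows. GGGCG was found at 5 of 20 (25%, against 15.6% of all optimal promoter summits and 16.4% of TSSs), at eIF2beta, eIF3c, eIF3h, eIF4A and eIF6. GGGTG was found at 3 of 20 (15.0%, against 18% and 16.7%), at eIF2D, eIF3h and eIF4H1. GGTCACAC, the core of Motif 1, was found at 10% against 5.20%, GAGAG at 20% against 26.0%, TATAAA at 25% against 32.5%, and CACGTG, an E-box, at 0 of 20 against 2.56%. CACGTG was not absent from these promoters. Within 250 bp of the summits it was at 20% against 6.94%. Within 100 bp of TSSs it was at 5 of 39 (12.8%) for factor genes with an optimal peak and 1 of 38 (2.63%) for those without. Its share at all TSSs was 2.80%. Both strands were searched, and none of these words contains another. Mean G+C was 43.03% in the 20 windows and 38.62% in all promoter windows, and the part of base composition in the share of GC-rich words was not tested. Each window is 5.0% of the 20, and several of these differences are no wider than 1 or 2 windows.

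Near transcription starts, the core letters of the TCT initiator were more frequent at translation factor genes than at all genes. The word TCTTT, on the strand of the gene with its first base within 10 bp of a TSS, was found at 12 of the 52 genes (23.1%), against 588 of 13945 (4.22%), and at 59 of the 92 ribosomal protein genes (64.1%). It was found at 7 of the 20 factor genes with an optimal promoter peak (35.0%; eEF1alpha1, eEF2, eEF5, eIF3c, eIF3m, eIF4A and eIF5B) and at 5 of the 32 without one (15.6%; eEF1alpha2, eIF3d1, eIF3e, eIF3g1 and eIF3i). Over all genes with an optimal promoter peak the share was 6.40%. The word was thus found at factor genes with and without an optimal peak. Factor genes with an optimal peak have a mean of 1.95 TSSs, against 1.188 for those without. More starts were therefore searched per gene, and the shares are not corrected for this. The starts of 5 of these genes are shown so that the word can be seen against the annotated TSS, 3 with an optimal peak followed by 2 without. Each line runs from 12 bases before the TSS to 14 after it, on the gene's strand in Release 6, with the word in capitals. In these 5 its first base lies 3 to 10 bases after the annotated TSS, so the word is near the start and is not shown to be the initiator. The intervals are chr2L:21682102-21682128 for eEF2 (minus strand), chr2L:5981752-5981778 for eIF4A (plus), chr3L:3460963-3460989 for eIF5B (minus), chr3R:31739648-31739674 for eEF1alpha2 (plus) and chr2L:4967761-4967787 for eIF3i (minus).
eEF2 start: gctgcagcgcctcgcTCTTTcctgtcg
eIF4A start: ttgcaagatggagccTCTTTtgcttgg
eIF5B start: aaattccaaaatatgccaaataTCTTT
eEF1alpha2 start: gaggatatacacggcagTCTTTaacca
eIF3i start: gccacggtcacactgcTCTTTtggcgt

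Taking each gene's highest summit, the TSS with TCTTT was the nearest TSS at eEF2 alone of the 7 genes, and the summit lay 57 bp downstream of it. At eEF5, eIF3c and eIF3m the summit lay 33, 92 and 160 bp upstream of the TSS with the word and nearer to another TSS. At eIF5B, eIF4A and eEF1alpha1 it lay 239, 742 and 965 bp downstream. The second optimal summits gave other distances. That of eEF1alpha1, with a pooled signal of 553.8, lay 129 bp upstream of the TSS with the word, that of eEF5, with 233.6, lay 180 bp downstream, and that of eIF3m, with 301.7, lay 367 bp upstream. At eIF4A no optimal summit lay within 500 bp of that TSS.

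**Figure D5:**
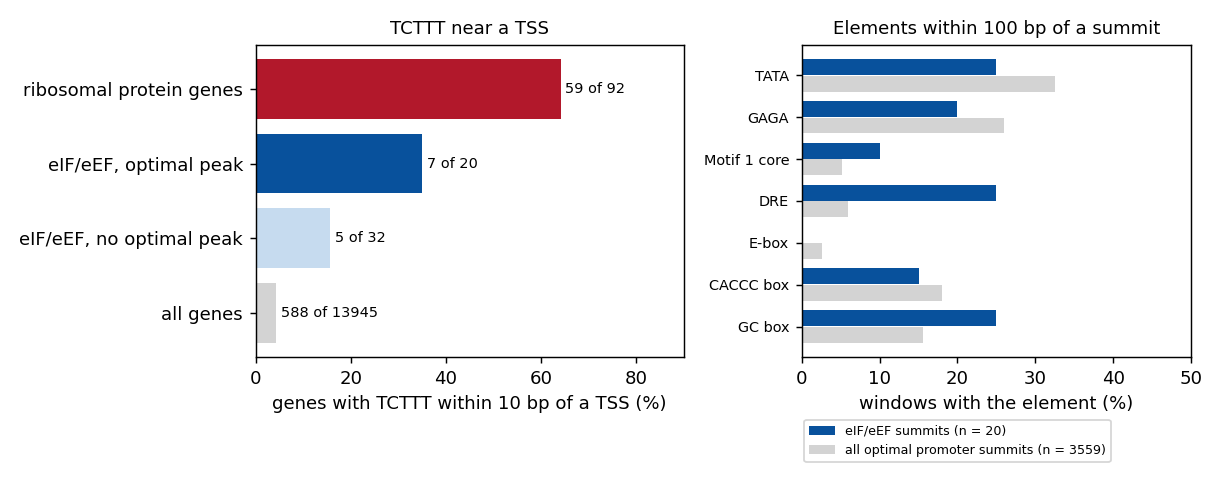
Left, share of genes (x axis, percent) with TCTTT within 10 bp of a TSS, with counts beside the bars. Right, share of windows of 100 bp either side of a summit (x axis, percent) that hold each element, at the 20 translation factor summits and at all 3559 optimal promoter summits. The word TCTTT is at 7 of 20 factor genes with an optimal peak and 588 of 13945 protein-coding genes, and the DRE bars are 25% and 5.96%.

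Away from promoters, the factor genes had few nearby peaks, with 1 large exception. A distal summit is one farther than 500 bp from the TSS of every protein-coding gene. An optimal distal summit lay within 5000 bp of a TSS at 6 of the 52 genes (11.5%, against 19.8% of all genes), namely eEF1alpha1, eEF1gamma, eIF2beta, eIF4A, eIF4E1 and eIF4EHP. With every pooled peak it was 19 genes (36.5%, against 43.3%). In the strongest peaks of replicates 1, 2 and 3 alone it was 9, 7 and 5 genes, with no share of all genes to set beside them. The median distance to the nearest optimal distal summit was 27077 bp, against 17147 bp for all genes. At 14 of the 20 genes with an optimal promoter peak (70.0%), the promoter signal was higher than that of the nearest optimal distal summit, against 56.4% of all 3873 genes with such a peak.

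The exception lies 5728 bp upstream of eEF1gamma in intergenic DNA, with its summit at position 29214444 of 3R. Its signals were 3124.6 in replicate 1, 2376 in replicate 2 and 2190.7 in replicate 3 (mean 2563.8 ± 494.4, SD, n = 3). With a pooled signal of 7693.3 it ranked 15 of the 8001 optimal peaks and exceeded every promoter peak of the translation factor genes. It was 1 of 4 optimal distal summits within 10000 bp of the gene, and the nearest of them, 4842 bp upstream, had a pooled signal of 345.6. None of the words searched was found in the 101 bases shown above for the strongest. Distance alone does not tie these summits to eEF1gamma.

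With only the strongest optimal distal summit of each gene within 10000 bp, the next after eEF1gamma was eIF3e, with 796.7 at 9903 bp upstream in an intron of CG9674. Then came eIF4A, with 507 at 4327 bp upstream in an intron of chic, and eIF5B, with 491.8 at 9934 bp downstream in its own intron. Taking only the nearest optimal distal summit of each gene, the highest were those of eIF3g1 (1245.1, in an intron of egh), eEF5 (1191.8, in an intron of tsr), eIF4E7 (1160.3, in an intron of CG3655), eIF3b (1002.7, intergenic) and eIF4E5 (951.8, in an intron of CG32365). All 5 lay 12423 bp or more from the factor gene and nearer to the TSS of another gene. eIF4B had the farthest, at 5006164 bp. This gene lies near the end of arm 3L, at position 27842669 of 28110227, and its nearest pooled distal summit was also far, at 1845464 bp.

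Other genes of translation were read from a list of 22 regulators, termination factors and mitochondrial factors. Of these, 14 had an optimal promoter peak (63.6%, against 27.8% of all genes). Over the replicates the share was lower, at 48.48% ± 5.249 (SD, n = 3), against 27.76% ± 3.572 (SD, n = 3) for all genes. Among the strongest peaks of all 3 replicates were 7 of the 22 genes (31.8%, against 18.1% of all genes). The highest was Lk6, the kinase of eIF4E, with signals of 374.5, 459.3 and 232.5 in replicates 1, 2 and 3. Dhps, which starts the hypusine modification of eEF5, had 238, 204.8 and 346.8, and eRF1, the release factor that reads stop codons, had 276.4, 168.8 and 325.9. Both were highest in replicate 3. Thor, the eIF4E-binding repressor, and PEK, a kinase of eIF2alpha, had weaker optimal peaks with pooled signals of 314 and 234.8. Of the 6 mitochondrial factors on the list, only mIF2 had an optimal peak, of 258.5.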

How the data were processed

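Sp1-GFP ChIP-seq of 3 biological replicates of whole larvae was analysed from the deposited peak lists, on assembly dm6 per the labels. The text deposited with the lists says that the authors called each replicate against 1 control, called the pooled list on all 3 replicates against it, and drew the optimal set from these by the irreproducible discovery rate. Which aligner and peak caller were used is not given in the sources. The deposited signal is the authors' caller's own value per peak. The other deposited value used is the offset of the summit from the peak's start, in bp. Peak lists hold no counts, so depth and the precision it gives are unknown. The replicates are separate biosamples of 1 line, and spreads are SDs over them.

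Gene models were Ensembl release 115 (BDGP6.54), with 19607 TSSs of protein-coding genes, and sequence was Release 6 of the genome. Each replicate was represented by its 8001 strongest peaks by signal, and summits within 100 bp counted as 1 site. Words were sought within 100 bp of summits. Every factor gene is accounted for, with replicate values for the 10 highest, for eIF4F, eIF2, eEF1, eEF2, eEF5 and paralog families, and the genes either side of the threshold. Other sets were taken by symbol or from a list of 22 genes. The genes and lists were chosen with earlier results of these data known. No significance test was run. Scripts were tested on simulated data, with Python 3.11.15, numpy 2.4.6, pandas 2.3.3 and matplotlib 3.10.9. Alternatives changed the promoter distance, the TSSs, the word window and the peak set, or left out a replicate by using sites shared by the other 2.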

Additional observations from a re-analysis of the deposited data

How the results depend on the processing

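Of 72 alternative values, 36 stayed within 1.5 times a count or within 1 SD of a value. The count of 20 factor genes with a promoter peak fell to 13 with replicate 3 alone and rose to 33 with every pooled peak, and it was 11, 13 and 18 without replicates 1, 2 and 3 (21.2%, 25% and 34.6%, against 16.82%, 19.05% and 23.13% of all genes). It was 19 within 200 bp, where eIF4EHP was lost, and 16 in the strongest 4001 optimal peaks. The share of all genes (27.77%) became 21.24% within 200 bp, 16.41% in those 4001, 23.66% with replicate 3 alone, 42.57% with every pooled peak and 21.61% by peak interval over a TSS. The median summit position of -27.5 bp became 22 bp with the most 5-prime TSS only, so its side depends on the TSSs used, -67 bp with replicate 3 alone and -109 to -24 bp without a replicate. Peaks shared with another gene numbered 3 of 19 within 200 bp, 14 of 22 within 1000 bp and 10 of 24 in replicate 1. The share of all genes is not given within 200 or 1000 bp, so the smaller share of factor genes is shown only within 500 bp. Genes with a distal summit within 5000 bp fell from 6 to 1 in those 4001 and became 2, 3 and 7 without replicates 1, 2 and 3. The share of all genes is not given at these distal settings, so the changes are not read as particular to the factor genes. In windows of 50 and 250 bp, GGGCG was at 15% and 40% of summits (against 7.59% and 38.2% of all optimal promoter summits), GGGTG at 5% and 25% (8.74% and 40.7%), TATCGATA at 15% and 30% (2.75% and 11.4%), GAGAG at 10% and 35% (13.6% and 54.8%) and TATAAA at 15% and 50% (19.3% and 55.3%). In 250 bp, CACGTG was at 20% (6.94%) and GGTCACAC at 20% (10.7%). Among those 4001, TATCGATA was at 31.25% and GAGAG at 25%. The causes were not tested. Depth is unknown, and 20 peaks limit every share.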
